A study of Drosophila melanogaster with 5 samples.

Results

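The miR-9 family of Drosophila melanogaster and the clustered mir-306 gene were measured in the adult male intestine and in the carcass that remained after dissection. The members were all table entries of the hairpins mir-9a, mir-9b, mir-9c, mir-79 and mir-306, which gave 10 mature arms of 5 hairpins among 479 arms of 259 hairpins in all. The intestine libraries (n = 3) and the carcass libraries (n = 2) were made from males 2 to 3 days old, of the w1118 strain (a white-eyed stock that the labels give as wild type), kept on standard food. Small RNAs of 18 to 29 nt were sequenced, and each value is a count of reads assigned to a mature arm, that is, to the 5′ (5p) or 3′ (3p) strand cut from a hairpin. Nothing in the labels ties replicates to separate flies, and the p-values therefore measure the spread among these libraries, part of which may be technical.

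MicroRNAs guide Argonaute proteins to messenger RNAs, mainly through the seed near their 5′ end, and lower the output of the matched transcripts. miR-9 is an ancient animal family. The 5p arms of miR-9a, miR-9b and miR-9c share a seed, and miR-9a is known in the fly for restraining senseless, a transcription factor gene, so that extra sensory organs do not form. The abundant arm of miR-79 is the 3p arm, which, with miR-4, is complementary to the Brd box, a motif in transcripts of Notch target genes. miR-306 has an unrelated sequence but lies among the family's clustered hairpins, and together with miR-79 it has been linked in the fly to the removal of tumour cells through JNK signalling.

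The 5 hairpins lie at 2 places in the genome (BDGP6.54 annotation, all on the plus strand). mir-9c (FBgn0262430, 2L:16697924-16698015), mir-306 (FBgn0262386, 2L:16698404-16698488), mir-79 (FBgn0262452, 2L:16698554-16698650) and mir-9b (FBgn0262413, 2L:16698744-16698834) form a cluster of 911 bases inside grp, the gene of the checkpoint kinase Chk1. All were intronic in every annotated grp transcript. mir-9c lies in one intron, and mir-306, mir-79 and mir-9b share the next, with a grp exon between them. mir-9c and mir-306 were 388 bases apart, mir-306 and mir-79 65 bases, and mir-79 and mir-9b 93 bases. mir-9a (FBgn0262373, 3L:19565131-19565208) lies alone on another chromosome, in the non-coding RNA gene lncRNA:CR45916, where it is exonic in some of the annotated transcripts. The mature arms are annotated at 22 or 23 bases, so counts were compared between arms without scaling for length. Ligation can favour some sequences over others, and levels of different arms are therefore read levels.

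The libraries held 329424 to 547937 microRNA reads in the intestine, against 1654625 to 3038873 in the carcass. The log2 values of libraries of the same tissue correlated across arms at 0.978 to 0.993 and those of different tissues at 0.698 to 0.711 (a description across arms, which are not independent). No pair of libraries agreed within sampling noise. The neuron and eye, muscle and testis marker lists went with the labels: the summed neuron and eye list was at 206 to 273 CPM (reads scaled to the same total in every library) in the intestine, against 20324 to 29828 CPM in the carcass, with 3 or 4 of its 8 arms at 0 in each intestine library. The testis clusters were at 35.3 to 49.3 CPM in the intestine, against 3257 to 3376 CPM in the carcass. The embryo list, chosen as absent from adult males, was present and higher in the intestine. It was at 146, 155 and 97.1 CPM there, against 36.9 and 39.2 CPM in the carcass, on 32 to 80 reads per intestine library. The reason was not tested. In bulk tissue, fewer cells of a type and less RNA per cell cannot be told apart.

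The 5 hairpins together took 1.25, 1.56 and 1.502% of the microRNA reads of the intestine libraries and 1.72 and 1.74% of those of the carcass libraries. Between the tissues, miR-306 was the member that rose most firmly in the intestine, miR-9b rose less, and miR-9a did not pass the test. Of the 10 arms, all of which passed the low-count filter, 5 were called higher in the intestine, 0 were called lower and 5 were not called at an adjusted p of 0.05 (quasi-likelihood test of edgeR, with Benjamini-Hochberg adjustment over 222 arms). Over all tested arms, 34.7% were called higher and 48.2% lower, so that 82.9% passed in either direction. Among the higher calls, miR-79-5p passed the filter in 3 intestine and 0 carcass libraries and miR-9b-3p in 3 and 1. Both entered the test through the intestine, so the filter favoured their direction, and the count of higher calls is not free of it. The 0 lower calls stand beside 0 member arms lower at an unadjusted p under 0.05, but DESeq2 called 3 arms lower. The median log2 fold change of the members was 0.63 and that of all tested arms -0.50. The counts above used TMM factors (trimmed mean of M-values) to scale the libraries. When library totals were used instead, 3 member arms were higher and 3 lower, and over all arms 50 were higher and 126 lower, against 77 and 107 with TMM.

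**Figure D1:**
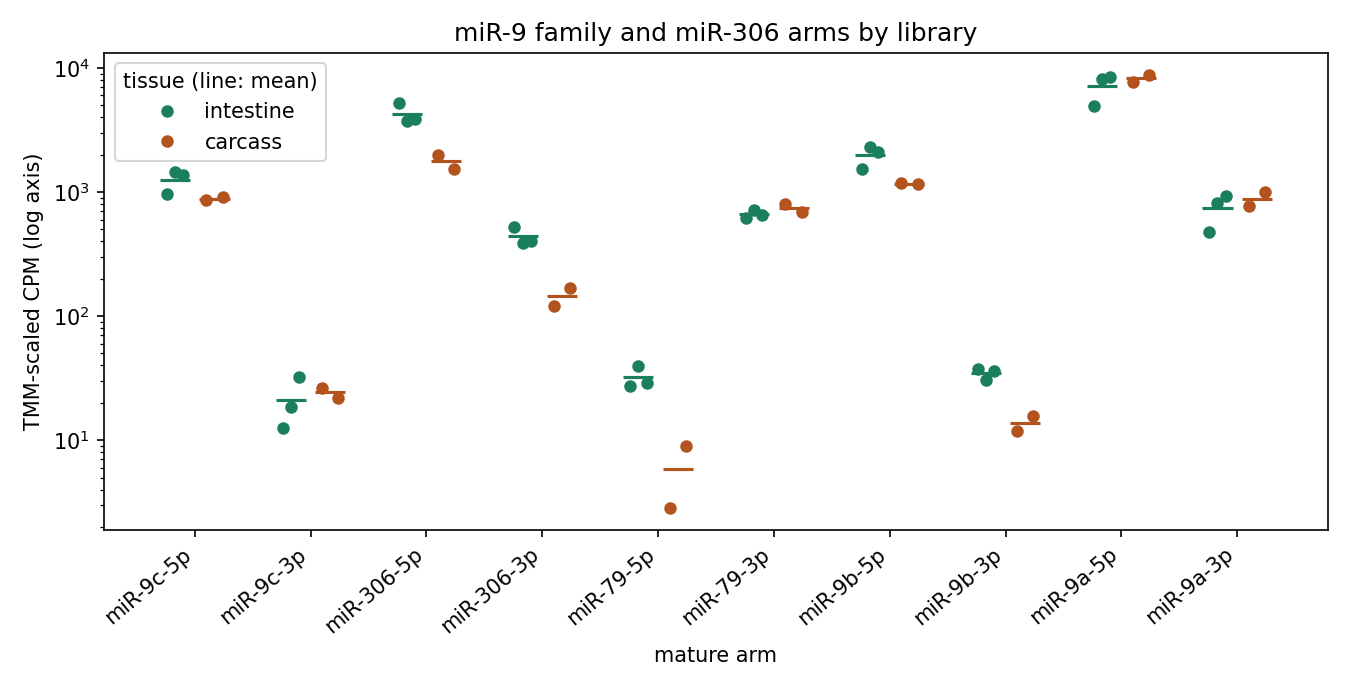
TMM-scaled CPM (log axis) of each mature arm of the miR-9 family and miR-306, with a point for each intestine library (n = 3) and each carcass library (n = 2) and a line at the mean. The intestine points of both miR-306 arms lie above the carcass points, whereas those of miR-9a-5p overlap. Over all tested arms, 87.8% showed no overlap between the tissues.

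miR-9a, the separate gene, had the highest mean read level of the members in both tissues, although miR-306-5p exceeded miR-9a-5p in intestine library 1. miR-9a-5p (3L:19565140-19565162) had 2340, 2639 and 2343 reads in the intestine libraries, against 16299 and 32469 reads in the carcass libraries. On the TMM scale these were 4910, 8111 and 8463 CPM in the intestine, against 7723 and 8818 CPM in the carcass, so the tissues overlapped and intestine library 1 stood lowest. Its log2 fold change was -0.21 (95% interval -0.68 to 0.26, edgeR adjusted p = 0.401), which misses the threshold without showing that the tissues are alike. With RLE factors the log2 fold change was -0.57 (edgeR adjusted p = 0.00947), and with library totals -0.73 (edgeR adjusted p = 0.000826), where all intestine libraries lay below both carcass libraries. By abundance miR-9a-5p was the 33rd, 23rd and 24th arm of the intestine libraries and the 17th of both carcass libraries, an order that needs no scaling. miR-9a-3p (3L:19565179-19565200), the less abundant arm, had 476, 814 and 932 CPM in the intestine, against 772 and 992 CPM in the carcass. Its log2 fold change was -0.26 (edgeR adjusted p = 0.357). The low value in intestine library 1 had a counterpart outside the family: the summed muscle list, 4 arms of miR-1 and miR-133, was at 27823 CPM of library totals there, against 41637 and 35878 CPM in intestine libraries 2 and 3. The muscle arms at 0 numbered 1, 1 and 0 in the 3 intestine libraries, and the part of muscle in the miR-9a level was not tested. On library totals, the neuron and eye list of the intestine stood at 0.912 ± 0.154% of its carcass level and the muscle list at 23.7 ± 4.69%. mir-9a stood at 60.0 ± 16.3% and mir-79 at 64.0 ± 6.35% (SD, n = 3 each). The means of mir-9c, mir-9b and mir-306 were 97.6, 119 and 172%. The part of neurons in the miR-9a level was not tested either.

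miR-306 differed most clearly. miR-306-5p (2L:16698418-16698439) had 2494, 1223 and 1071 reads in the intestine, against 4213 and 5633 reads in the carcass. These were 5233, 3759 and 3868 CPM in the intestine, against 1996 and 1530 CPM in the carcass on the TMM scale. Every intestine library lay above both carcass libraries, but 87.8% of all tested arms showed no overlap. The log2 fold change of miR-306-5p was 1.28 (SE 0.25, edgeR adjusted p = 1.69e-05), or 2.43-fold more in the intestine. miR-306-3p (2L:16698455-16698476) had 525, 387 and 405 CPM in the intestine, against 121 and 169 CPM in the carcass, with a log2 fold change of 1.59 (SE 0.26, edgeR adjusted p = 1.27e-06). Both arms were called higher in all 17 alternatives tried, with log2 fold changes of 0.75 to 1.4998 for the 5p arm and 1.08 to 1.84 for the 3p arm. On library totals, mir-306 stood at 210, 154 and 151% of its carcass level in the intestine libraries. It was the 1 member hairpin called higher with library totals.

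miR-9b and miR-9c, whose 5p arms share the miR-9a seed, had 5p log2 fold changes above that of miR-9a-5p (-0.21). The 95% interval of miR-9c-5p overlapped that of miR-9a-5p (-0.68 to 0.26), and that of miR-9b-5p (0.261 to 1.27) touched its upper end. A count test of mir-79, mir-9b and mir-9c summed against mir-9a missed the threshold (edgeR adjusted p = 0.0628). miR-9b-5p (2L:16698758-16698780) had 1542, 2317 and 2102 CPM in the intestine, against 1172 and 1167 CPM in the carcass. It was called higher (log2 fold change 0.76, SE 0.25, edgeR adjusted p = 0.00519), but 7 of 17 alternatives lost the call. It missed the threshold with RLE factors (log2 fold change 0.40), with library totals (0.24), without intestine library 2 (0.46) and without intestine library 3 (0.47). miR-9c-5p (2L:16697936-16697957) had 965, 1438 and 1358 CPM in the intestine, against 864 and 904 CPM in the carcass. The tissues did not overlap on that scale, and 87.8% of all tested arms showed no overlap, but the arm missed the threshold (log2 fold change 0.50, 95% interval -0.004 to 1.007, edgeR adjusted p = 0.0609). With library totals its log2 fold change was -0.02, and with TMM factors computed without the member hairpins it passed (0.51, edgeR adjusted p = 0.0484). Their 3p arms were scarce. miR-9b-3p (2L:16698799-16698820), with 38 intestine and 83 carcass reads, was called higher (log2 fold change 1.32, SE 0.45, edgeR adjusted p = 0.00766), and miR-9c-3p (2L:16697984-16698005), with 21 and 137 reads, was not called (-0.28, edgeR adjusted p = 0.585). miR-9b-3p lost its call in 4 of 16 alternatives. It passed the low-count filter of 18.3 CPM in 3 intestine libraries and 1 carcass library, so it entered the test through the intestine, and without the filter it was not called (0.91, edgeR adjusted p = 0.0542).

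miR-79 was the hairpin whose arms parted. miR-79-3p (2L:16698613-16698634), the abundant arm, had 621, 719 and 650 CPM in the intestine, against 802 and 695 CPM in the carcass, with overlapping tissues. It had a log2 fold change of -0.17 (SE 0.24, edgeR adjusted p = 0.494), and -0.70 with library totals (edgeR adjusted p = 0.00565). miR-79-5p (2L:16698572-16698594), the scarce arm, had 13, 13 and 8 reads in the intestine, against 6 and 33 reads in the carcass, although the carcass libraries were deeper. This gave 27.3, 39.95 and 28.9 CPM in the intestine, against 2.84 and 8.96 CPM in the carcass. This was a log2 fold change of 2.28 (SE 0.59, edgeR adjusted p = 0.000628), and it was called in the 16 alternatives in which it was tested. Its size rested on the carcass libraries, at 3.39 without carcass library 2 and 1.82 without carcass library 1. It passed the low-count filter of 18.3 CPM in 3 intestine and 0 carcass libraries, so the filter favoured this direction. Without the filter the log2 fold change was 1.88 (edgeR adjusted p = 0.000198).

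Summed over both arms, mir-306, mir-9b and mir-9c were called higher in the intestine and mir-79 and mir-9a were not called. Over all 139 hairpins tested, 33.8% were called higher and 51.1% lower. TMM factors were computed afresh on the hairpin sums, so these CPM are not on the scale of the arms: the factor of intestine library 1 was 0.690 for hairpins and 0.870 for arms. mir-306 averaged 5128 ± 1846 CPM on the hairpin scale in the intestine (SD, n = 3), against 1775 ± 425 CPM in the carcass (SD, n = 2), a log2 fold change of 1.53 (edgeR adjusted p = 0.000993). mir-9b averaged 2109 ± 185 CPM in the intestine, against 1094 ± 94.6 CPM in the carcass (same n; log2 fold change 0.95, edgeR adjusted p = 0.00295). mir-9c averaged 1328 ± 105 CPM in the intestine, against 838 ± 49.1 CPM in the carcass (log2 fold change 0.66, edgeR adjusted p = 0.0199), and its call was lost in 10 of 18 alternatives, among them leaving out carcass library 1 (0.56) or 2 (0.50) and intestine library 2 (0.35) or 3 (0.54). mir-79 had 0.07 (95% interval -0.46 to 0.61, edgeR adjusted p = 0.783), a sign that turned in 12 of 18 alternatives. mir-9a had -0.05 (95% interval -0.54 to 0.44, edgeR adjusted p = 0.851). With the factors of the arm fit, added after the data were seen, the log2 fold changes were 1.31 for mir-306, 0.77 for mir-9b, 0.49 for mir-9c, -0.12 for mir-79 and -0.21 for mir-9a. The same 3 hairpins were called higher, mir-9c at an edgeR adjusted p of 0.0499.

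A ratio of hairpins within a library does not depend on the scaling between libraries, and the summed cluster was compared with mir-9a in this way. For each mir-9a read there were 1.66, 0.976 and 0.903 reads of the cluster (mir-9c, mir-306, mir-79 and mir-9b summed) in the intestine libraries, against 0.588 and 0.460 in the carcass libraries. Every intestine library thus stood above both carcass libraries, and intestine library 1 was highest. The log2 ratio was 0.18 ± 0.48 in the intestine (SD, n = 3), against -0.94 ± 0.25 in the carcass (SD, n = 2), a difference of 1.13. The exact two-sided permutation test gave p = 0.1, the smallest that its 10 arrangements allow, so this design cannot reach 0.05 by that test; 20 such ratios, shares and sums were compared, and the adjusted value was 0.182. On the ratio without logs the same test gave an exact p = 0.2. A count test of the same pair in a fit over all hairpins, added after the data were seen, gave a log2 difference of 1.08 (edgeR adjusted p = 0.00142 over 18 genomic units). Without intestine library 1 the difference in the log2 ratio was 0.85.

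**Figure D2:**
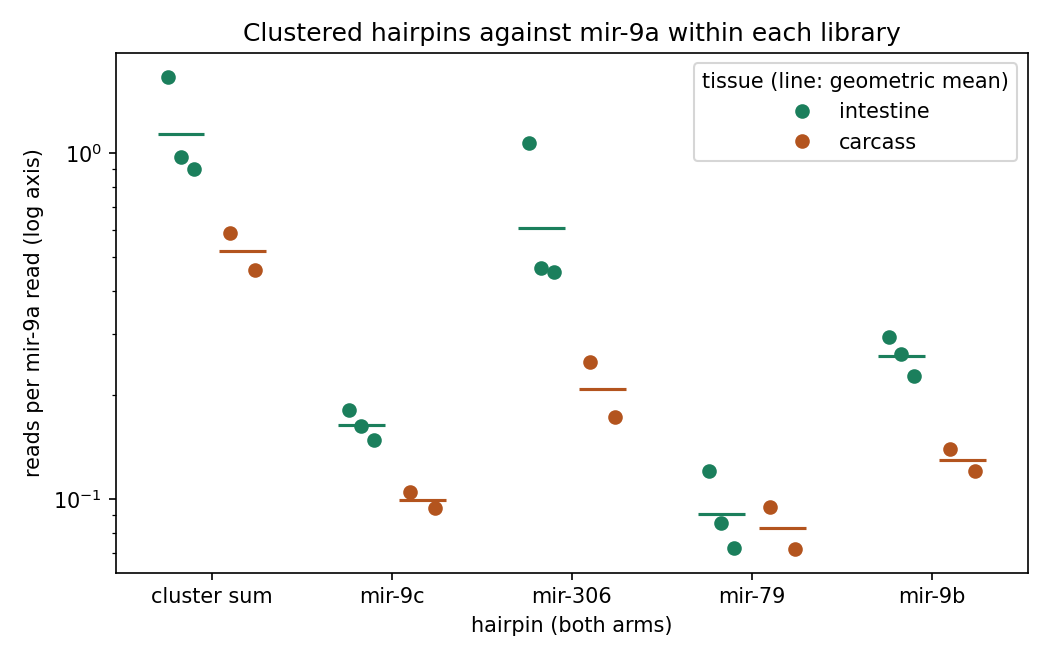
Reads of the summed cluster and of each clustered hairpin (both arms) per mir-9a read within the same library, on a log axis, with points for the intestine libraries (n = 3) and carcass libraries (n = 2) and lines at the geometric mean. The cluster sum lies between 0.903 and 1.66 in the intestine and at 0.460 and 0.588 in the carcass, and only the mir-79 points of the tissues overlap. Separation is common here, as 87.8% of all tested arms did not overlap in level.

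The clustered hairpins contributed unequally to that difference. mir-306 had 1.07, 0.465 and 0.455 reads per mir-9a read in the intestine, against 0.249 and 0.173 in the carcass, a log2 difference of 1.55. mir-9b had 0.293, 0.263 and 0.228 in the intestine, against 0.139 and 0.121 in the carcass, a log2 difference of 1.004. mir-9c had 0.182, 0.163 and 0.148 in the intestine, against 0.105 and 0.0944 in the carcass, a log2 difference of 0.72. In these 3 hairpins the intestine libraries all lay above the carcass libraries, whereas mir-79, at 0.120, 0.0851 and 0.0723 in the intestine, against 0.0948 and 0.0718 in the carcass, overlapped (log2 difference 0.14, exact permutation p = 0.8). No share over all hairpins was computed for such ratios, but 87.8% of all tested arms did not overlap in level, so separation is common here. Without mir-306, the difference between the remaining cluster and mir-9a was 0.72 in the log2 ratio and 0.70 in the count test, which missed the threshold (edgeR adjusted p = 0.0628).

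The make-up of the 5p arms with the miR-9 seed shifted accordingly. Of the summed reads of miR-9a-5p, miR-9b-5p and miR-9c-5p, miR-9a-5p took 66.2, 68.4 and 71.0% in the intestine, against 79.1 and 81.0% in the carcass. miR-9b-5p took 20.8, 19.5 and 17.6% in the intestine, against 12.0 and 10.7% in the carcass, and miR-9c-5p took 13.01, 12.1 and 11.4% in the intestine, against 8.85 and 8.30% in the carcass. None of these shares overlapped between the tissues (exact permutation p = 0.1 each, the smallest possible). The shares add up to the whole in each library, so they are not separate results, and no background over other families was computed. The summed level was 7418, 11866 and 11923 TMM-scaled CPM in the intestine, against 9759 and 10889 CPM in the carcass, with the tissues overlapping (exact permutation p = 1).

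Within the cluster, the hairpins did not keep their proportions between tissues. mir-306 supplied 64.2, 47.6 and 50.4% of the cluster's reads in the intestine, against 42.4 and 37.7% in the carcass. mir-79 supplied 7.23, 8.72 and 8.01% in the intestine, against 16.1 and 15.6% in the carcass. mir-9b supplied 17.6, 27.0 and 25.2% in the intestine, against 23.7 and 26.2% in the carcass, and mir-9c 10.9, 16.7 and 16.4% in the intestine, against 17.8 and 20.5% in the carcass. The proportions differed by edgeR's test of use within genomic clusters (adjusted p = 0.00269), which called 27.8% of 18 clusters. Among single hairpins, of which 10.8% of 65 were called, mir-79 departed from the rest of its cluster (relative log2 fold change -0.70, edgeR adjusted p = 0.00828). mir-306 had a relative log2 fold change of 0.31 (edgeR adjusted p = 0.461) and passed by limma-voom (0.92, adjusted p = 0.00607) but not in the other 9 alternatives. mir-79 and mir-9b stood at 0.410, 0.323 and 0.318 mir-79 reads per mir-9b read in the intestine, against 0.680 and 0.595 in the carcass. There were 0.619, 0.620 and 0.650 mir-9c reads per mir-9b read in the intestine, against 0.752 and 0.783 in the carcass. mir-306 stood at 3.64, 1.77 and 1.998 reads per mir-9b read in the intestine, against 1.79 and 1.44 in the carcass, with the tissues overlapping (log2 difference 0.55, exact permutation p = 0.5).

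**Figure D3:**
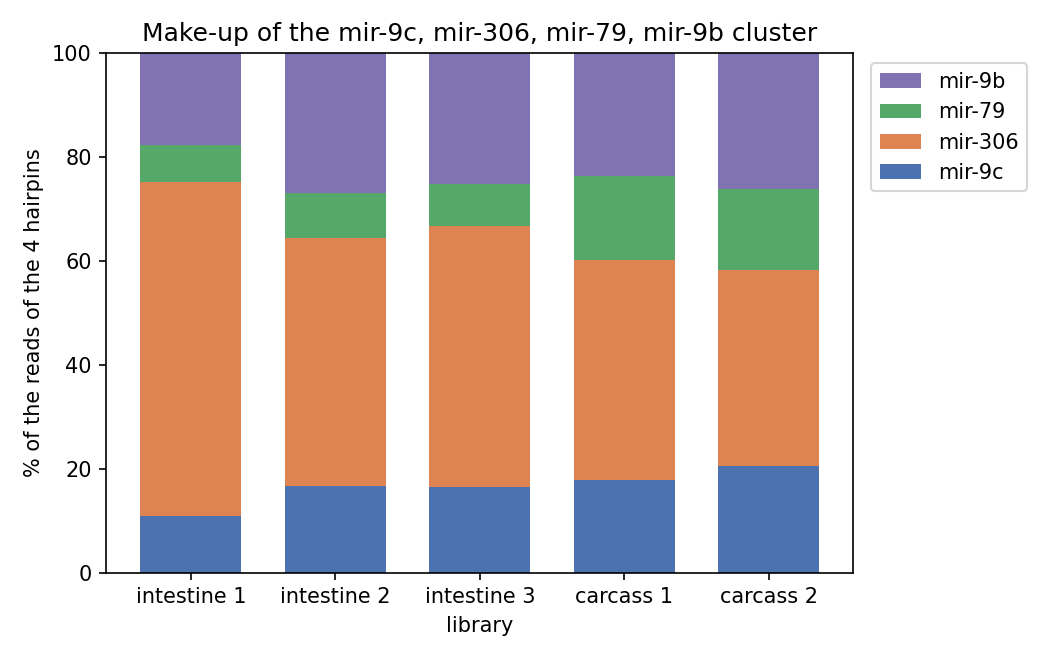
Share of each hairpin (both arms) in the reads of the mir-9c, mir-306, mir-79 and mir-9b cluster, in percent, with a stacked bar for each intestine and carcass library. The mir-79 share is 7.23 to 8.72% in the intestine, against 15.6 to 16.1% in the carcass, and intestine library 1 has the highest mir-306 share, at 64.2%.

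Of the 5 hairpins, mir-79 was called for a change in the use of its arms, and the other 4 were not. That call rests on miR-79-5p, which entered the test only through the intestine, where it is high. The 5p arm of mir-79 made up 4.21% of the hairpin's reads in intestine library 1 (95% Wilson interval 2.47 to 7.06), 5.26% in library 2 (3.10 to 8.80) and 4.26% in library 3 (2.17 to 8.17). In the carcass it made up 0.353% in library 1 (0.162 to 0.768) and 1.27% in library 2 (0.908 to 1.78). No intestine interval overlapped a carcass interval, but the carcass intervals did not overlap each other either, and they cover counting error only. The fitted log2 fold changes of the 5p and 3p arms differed by 2.46 (edgeR test of arm use, adjusted p = 4.08e-06). Among 85 hairpins with both arms tested, 21.2% were called, and mir-79 had the 6th smallest p. The call held in all 9 alternatives that tested both arms, with differences of 1.88 to 3.68 (2.46 without the low-count filter); after thinning to the shallowest total miR-79-5p no longer passed the filter.

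The 3p arm of mir-9a made up 8.84, 9.13 and 9.92% of its reads in the intestine, against 9.09 and 10.1% in the carcass (edgeR adjusted p = 0.923). The 3p arm of mir-306 made up 9.11, 9.34 and 9.47% in the intestine, against 5.73 and 9.97% in the carcass, so that the carcass libraries lay further apart than the tissues (edgeR adjusted p = 0.502). The 3p arm of mir-9b made up 2.39, 1.31 and 1.69% in the intestine, against 1.001 and 1.33% in the carcass (edgeR adjusted p = 0.307). The 3p arm of mir-9c made up 1.29, 1.27 and 2.34% in the intestine, against 2.98 and 2.38% in the carcass (edgeR adjusted p = 0.185). Neither of the last 2 hairpins was called, and their 3p arms rested on 6 to 81 reads per library.

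**Figure D4:**
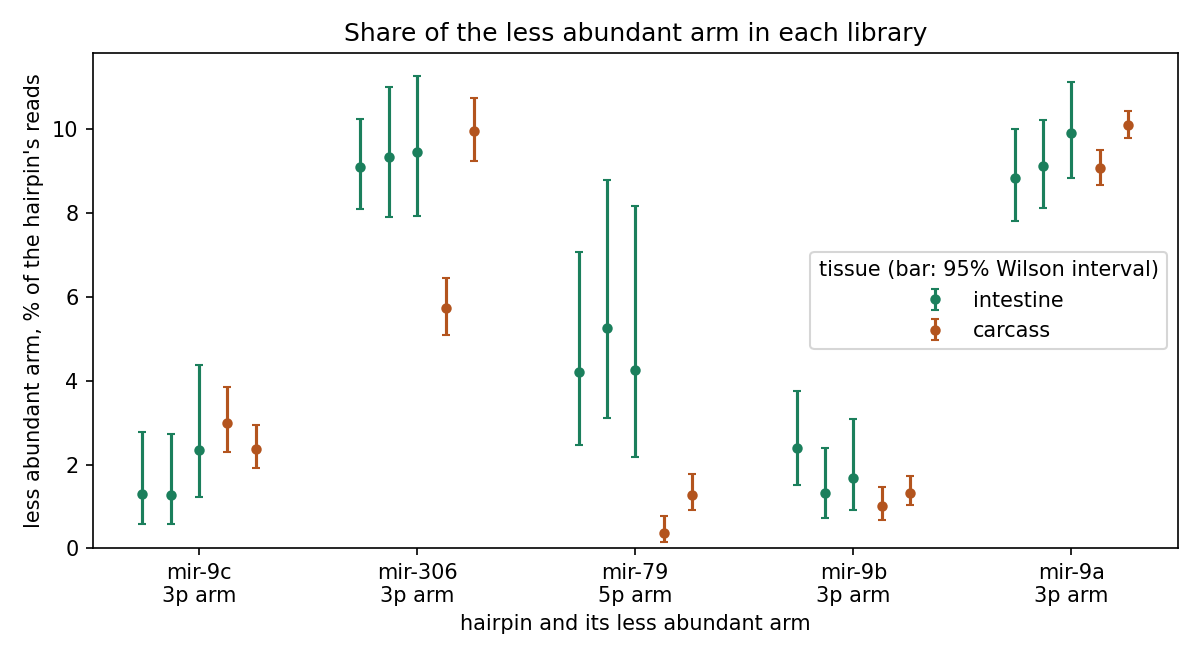
Share of the less abundant arm in the reads of each hairpin, in percent, with a point for each intestine (n = 3) and carcass (n = 2) library and bars for 95% Wilson intervals. The 5p arm of mir-79 lies at 4.21 to 5.26% in the intestine and at 0.353 and 1.27% in the carcass, and the 3p arms of mir-9a lie between 8.84 and 10.1% in both tissues.

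Within the intestine, library 1 differed from the other two in several member arms. Its TMM-scaled level was 0.593 times the mean of libraries 2 and 3 for miR-9a-5p, 0.690 times for miR-9c-5p and 0.698 times for miR-9b-5p, but 1.37 times for miR-306-5p and 1.33 times for miR-306-3p. It was closer for miR-79-3p, at 0.907 times, and for miR-9b-3p, at 1.13 times. These ratios depend on the scaling: with the factors of the hairpin fit they were 0.768 for mir-9a, 0.896 for mir-9c, 0.919 for mir-9b, 1.18 for mir-79 and 1.79 for mir-306. miR-306-5p therefore exceeded miR-9a-5p in that library alone. In the carcass, miR-9a-5p in library 1 was 0.876 times that in library 2, and miR-306-5p was 1.30 times. Ordered by mean level, the intestine had miR-9a-5p (7161 ± 1958 CPM) first, then miR-306-5p (4287 ± 821), miR-9b-5p (1987 ± 400) and miR-9c-5p (1254 ± 253; SD, n = 3 each), and the values of miR-9a-5p and miR-306-5p overlapped. The carcass had miR-9a-5p (8271 ± 774 CPM) first, then miR-306-5p (1763 ± 330), miR-9b-5p (1170 ± 3.24) and miR-9c-5p (884 ± 28.3; SD, n = 2 each), without overlap between these.

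**Figure D5:**
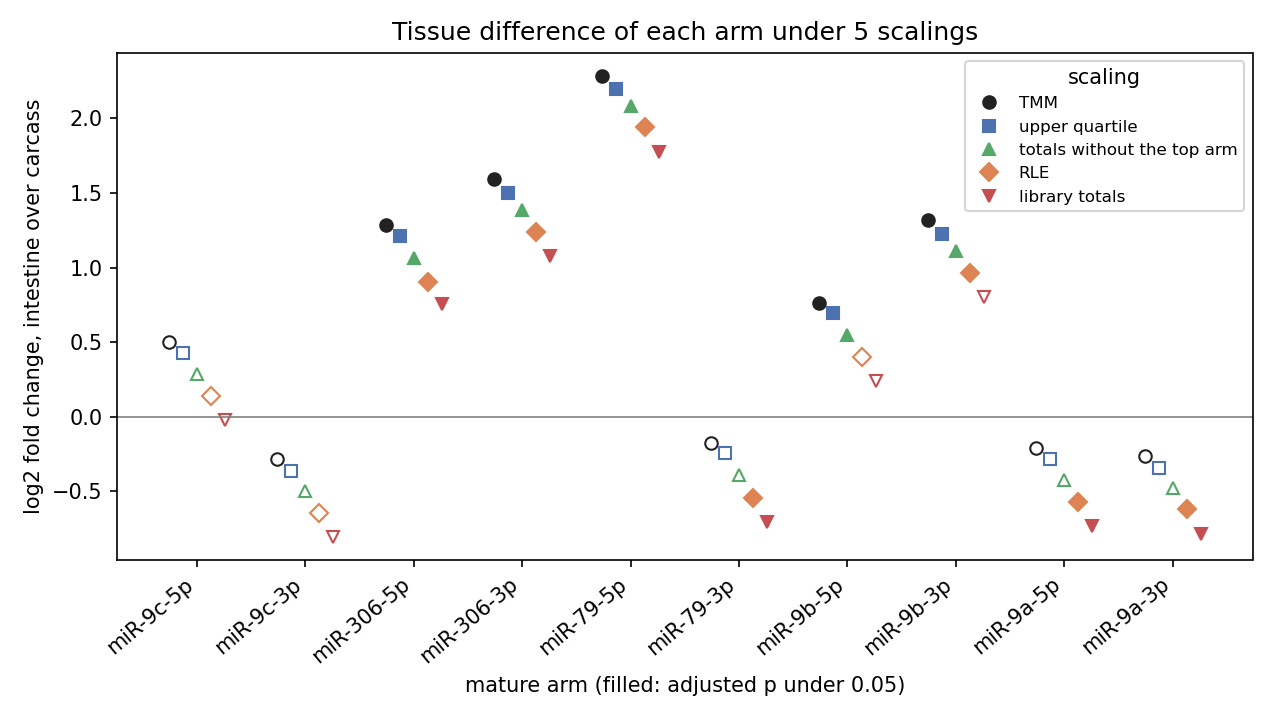
Log2 fold change of each member arm, intestine over carcass, under 5 scalings of the libraries, with filled symbols where the adjusted p was under 0.05 (edgeR). Both miR-306 arms and miR-79-5p are filled above 0 under each scaling, whereas the miR-9a arms are open with TMM and filled below 0 with RLE factors and library totals. miR-79-5p entered the test only through the intestine, where it is high.

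The Brd box that miR-79-3p matches is one of several motifs in Notch target transcripts, and other microRNAs are complementary to the K box (miR-2, miR-6, miR-11, miR-13 and miR-308) or the GY box (miR-7). Of both arms of the 16 hairpins of that list, 21 were tested, of which 16 were called higher, 3 lower and 2 not called, beside 34.7% higher and 48.2% lower over all tested arms. The median log2 fold change was 0.97, beside -0.50 over all tested arms. The arms complementary to a box (the 5p arm of miR-7 and the 3p arms of the others) made up 13 of the 21, of which 9 were called higher, 2 lower and 2 not called, with a median of 0.93. The other 8 were the opposite arms, miR-79-5p among them. The arms with the largest changes were miR-308-3p (2.83) and miR-6-1-3p (2.68) upward and miR-13a-3p (-5.03) and miR-2c-5p (-4.16) downward, all called by edgeR. miR-2c-5p is an opposite arm. miR-6-1-3p passed the low-count filter in 0 carcass libraries, miR-2c-5p in 0 intestine libraries and miR-13a-3p in 1 intestine library, so each was tested through the tissue where it is high, and the filter favoured these changes. miR-79-3p was 1 of the 2 not called, the other being miR-2c-3p (-0.34), and the GY-box arm miR-7-5p was lower (-2.31). No arm of mir-4, the other Brd-box hairpin, was tested, since its arms fell short of the low-count filter. Copies of miR-2, miR-6 and miR-13 are near-identical, so that reads may be split between them. For example, miR-13b-1-3p and miR-13b-2-3p averaged 2964 and 2986 CPM in the intestine, against 1555 and 1537 CPM in the carcass. Such arms are not independent, and the counts and medians of this list may hold 1 microRNA more than once.

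Profiles most like those of the members were found by the distance between log2 values over the 5 libraries, each centred on its mean, among 212 tested arms of other hairpins. The nearest to miR-9a-5p were miR-304-5p, miR-276a-5p and let-7-5p, at distances of 0.336 to 0.466 against a median of 2.81. The nearest to miR-306-5p were miR-33-3p, miR-137-3p and miR-305-3p (0.254 to 0.377, median 2.79). The nearest to miR-79-3p were miR-986-5p, miR-284-5p and let-7-5p (0.327 to 0.385), while miR-92b-3p came first for both miR-9b-5p (0.327) and miR-9c-5p (0.313). Within the group, miR-9b-5p and miR-9c-5p were each other's nearest member at 0.293, closer than any arm outside it, and miR-9a-5p and miR-79-3p were each other's nearest member at 0.600.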

How the data were processed

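The authors deposited whole-number counts for each annotated mature microRNA arm, without normalisation, in 1 column per library. Per the submitters' processing notes, cutadapt 1.9.1, Bowtie2 2.3.2, Subread 2.0.0 and featureCounts were used. Genome build, strand setting and the handling of reads with several matches: not given in the sources used here. Coordinates are therefore those of the BDGP6.54 annotation, to which 473 arms matched by name and 6 by synonym, and the position within the hairpin gave the arm. Mature sequences were not used here, so hairpins were not compared within seed families. A floor of 3 reads equals 5.48 to 9.11 CPM in the intestine and 0.987 to 1.81 CPM in the carcass.

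The test was the quasi-likelihood test of edgeR 4.0.16, run under R 4.3.3 on counts of all arms or, with factors of their own, on sums per hairpin (filterByExpr, minimum count 10 and total 15; TMM factors; no replicate block; adjusted p threshold 0.05). Standard errors were taken as the log2 fold change, without its sign, divided by the root of F, and 95% intervals use the degrees of freedom of the fit. Use of arms within hairpins, and of hairpins within genomic clusters (same strand, gaps of at most 10000 bases), was tested with diffSpliceDGE. Log2 ratios used a pseudocount of 0.5. Alternatives used DESeq2 1.42.0, limma 3.58.1, other scalings, filters and left-out libraries.

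The members and lists were chosen with earlier results of these data known. The text names every member arm, the extreme called arms of the box list and the nearest 3 profiles. On counts simulated for the 222 arms, the test found 31.0% of the arms given a 1.5-fold change, 84.2% at 2-fold and 100% at 4-fold, and it also called 2.39% of unchanged arms. The simulation changed part of the arms, up or down at random, with levels and spreads taken from the fit. In the data 82.9% of arms were called, more of them lower than higher, and member calls moved with the scaling. The simulation did not cover that setting, so its rates may not hold for these calls.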

Additional observations from a re-analysis of the deposited data

How the results depend on the processing

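The higher calls of miR-306-5p, miR-306-3p and the mir-306 hairpin and the adjusted p of the hairpin proportions (8.18e-05 to 0.00955) kept their side of the threshold in every alternative run, as did miR-79-5p, the arm use of mir-79 and the mir-79 share of the cluster wherever they were tested. miR-79-5p, on which the arm use of mir-79 also rests, passed the low-count filter in 3 intestine and 0 carcass libraries. Most alternatives used that filter and so repeat its selection, and their agreement is not separate support for these calls. The calls of miR-9b-5p, miR-9b-3p, mir-9b and mir-9c were each lost in at least 1 alternative, and the causes were not tested. Member arms called higher numbered 5 with TMM, 6 with TMM factors without the members, 3 with DESeq2, library totals or no low-count filter and 2 after thinning; those called lower numbered 0 with TMM, 3 with library totals, DESeq2 or RLE factors, and 2 without the filter or with a mean of at least 10 CPM. Leaving out a library gave 4 to 5 higher and 0 to 2 lower, the 2 without intestine library 3 being miR-9a-5p (-0.59) and miR-9a-3p (-0.70). Member hairpins called higher numbered 3 with TMM, 1 with library totals and 2 to 3 in the other alternatives, left-out libraries included; those called lower numbered 2 with library totals and 0 in the others. Arm-use calls fell to 0 after thinning, as miR-79-5p was no longer tested.

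Signs turned for miR-9c-5p (-0.023) and mir-9c (-0.038) with library totals. The mir-79 hairpin was -0.031 with RLE factors, -0.18 with upper-quartile factors, -0.64 with library totals, -0.33 with totals without the top arm, -0.093 with TMM factors without the members, -0.030 with DESeq2, -0.19 without the filter, -0.025 after thinning and -0.12 with the factors of the arm fit (added), and between -0.22 and 0.085 when a library was left out. Relative use of mir-9b was 0.12 by limma-voom and -0.17 to 0.053 with a library left out. Arm use ran from -0.76 to 0.11 for mir-306 and from -0.043 to 0.13 for mir-9a with a library left out, and was -0.012 for mir-9a after thinning. Of these, mir-9c alone had passed the test with TMM.

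The log2 ratio difference of the cluster over mir-9a was 0.72 to 1.30 over the alternatives and 0.85 to 1.30 with a library left out; the edgeR pair test, added after the data were seen, gave 1.08 (edgeR adjusted p = 0.00142). The shared replicate numbers 1 and 2 were not taken to pair the libraries, since nothing in the labels says so. The correlations of deviations were 0.026 and 0.021. The deviations of the 2 carcass libraries mirror each other, so these values cannot show whether the libraries are paired. With a replicate block 4 member arms were called higher and 0 lower, miR-9b-3p (log2 fold change 1.33, edgeR adjusted p = 0.0754) and mir-9c (0.67, edgeR adjusted p = 0.0649) lost their calls at about the same size, and the ratio difference was 1.29. Depth limits miR-9c-3p, miR-79-5p and miR-9b-3p, with 21, 34 and 38 intestine reads; miR-79-5p had the widest SE of the member arms, at 0.59.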
